A study of Mus musculus with 82 samples.

Results

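Alad encodes delta-aminolevulinate dehydratase, the enzyme that joins aminolevulinate molecules into porphobilinogen early in heme synthesis, and its gene lies on mouse chromosome 4. Heme made in the liver serves mainly cytochrome P450 enzymes, while most heme of the body is made in developing red cells. The DBA/2J strain (D2) is known to carry extra copies of Alad and C57BL/6J (B6) is not, so BXD recombinant inbred strains, each a fixed mosaic of both genomes, inherit one or the other form. The genotype of each strain at Alad was not analysed here, and the strains below were divided by the measured level of the transcript alone.

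The strains were BXD lines whose liver RNA was hybridised on two-colour arrays against a mixed embryonic RNA (B6, day 17.5), called the embryo mix below. Of 17 BXD strains on 72 such arrays, 13 had liver in either channel in both sexes and entered the comparison, on 64 arrays. The series description gives an age of 10 to 20 weeks and 3 unfasted males per strain, while the array labels name both sexes. Whether mice were pooled is not stated in the labels, and no treatment or engineered allele is labelled in any group. For each strain and sex both orientations were averaged, and the sexes were then averaged to 1 value per strain. The groups were chosen by the measured Alad level: strains were sorted by it and divided at the widest gap that left at least 3 strains on each side.

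This gave 6 strains with high Alad (BXD6, BXD11, BXD15, BXD16, BXD28 and BXD31, 32 arrays) and 7 with low Alad (BXD2, BXD5, BXD12, BXD18, BXD19, BXD21 and BXD32, 32 arrays). All levels below are log2 ratios of liver over the embryo mix, and all differences are high minus low Alad strains on that log2 scale. The deposited ratios name neither their log base nor their direction. They were read as log10 of channel 2 over channel 1 because adult hepatocyte genes (7 measured) then had a higher median than embryonic genes (10 measured) on 74 of 74 arrays, the lowest hepatocyte median being 2.90 and the highest embryonic one -0.39. That direction is likely and not stated, and which group is called high depends on it. As these markers set the direction, they are no independent check of the labelled tissue. Array medians lay between 0.00 and 0.12, and the spread over probes within an array was 0.69 to 1.12 (SD).

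Alad was above 0 in all 13 strain means. In the low group it was 0.14 in BXD12, 0.30 in BXD5, 0.40 in BXD2, 0.44 in BXD18, 0.60 in BXD19, 0.71 in BXD32 and 0.77 in BXD21. In the high group it was 1.11 in BXD16, 1.19 in BXD6, 1.21 in BXD11, 1.27 in BXD28, 1.36 in BXD31 and 2.88 in BXD15. The strains just inside the gap, BXD21 and BXD16, were 0.34 apart, and the next widest permitted gap, between BXD18 and BXD19, was 0.16.

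The group means were 1.50 ± 0.68 (SD, n = 6) and 0.48 ± 0.23 (SD, n = 7), a difference of 1.02 or 2.03-fold, which is a description because Alad set the groups. BXD15 stood far above the rest of its group; without it the high mean was 1.23 ± 0.09 (SD, n = 5) and the difference 0.75. The other 5 high strains thus lay within 0.25 of each other, from 1.11 to 1.36, whereas the low strains were spread over 0.14 to 0.77.

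**Figure D1:**
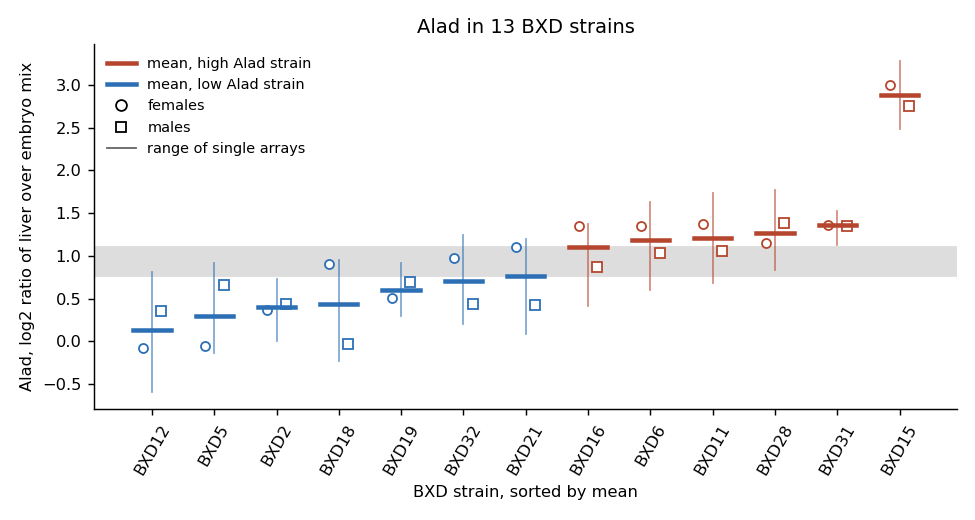
Alad level (log2 ratio of liver over embryo mix, vertical axis) in the 13 BXD strains, sorted by mean; thick bars are strain means, circles females, squares males, thin lines the range of single arrays, and the grey band is the gap. BXD15 stands at 2.88, the other high strains between 1.11 and 1.36, and the low strains between 0.14 and 0.77.

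The strain order held only in part within each sex. In females the low strains ran from -0.08 to 1.11 and the high strains from 1.15 to 3.0. In males they ran from -0.03 to 0.69 and from 0.87 to 2.75. Neither sex had overlapping groups, and the group difference was 1.07 in females and 0.98 in males. Within the low group the sexes differed most in BXD18, at 0.90 in females and -0.03 in males, and in BXD5, at -0.06 and 0.66. The widest permitted gap within one sex fell elsewhere: females alone gave 9 high strains and 4 low ones, and males alone gave 3 high strains (BXD15, BXD28 and BXD31) and 10 low ones. Single arrays overlapped more, from -0.60 to 1.24 in the low group (median 0.70) and from 0.41 to 3.28 in the high group (median 1.40), and 11 of 32 high arrays lay at or below the highest low array. Alad read higher with liver in channel 1 than in channel 2 in 26 of 26 values by strain and sex, by 0.49 on average. The 13 strain levels weight both orientations equally, whereas the values of single arrays carry this offset.

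Arrays outside the grouping were read beside these levels. B6 males, on 2 arrays against the same mix, stood at 0.64. Among the male values of the low group this lay between BXD32 at 0.44 and BXD5 at 0.66. On the 6 arrays that set D2 directly against B6 liver, the D2 over B6 ratio of Alad was 0.93, 1.63 and 1.40 in females and 0.39, 0.97 and 0.96 in males. It was above 0 on each of these arrays, and on the 2 arrays of RNA labelled as enriched it was 1.32 in females and 1.46 in males. The first value given for each sex came with D2 in channel 2. The others and both enriched arrays had D2 in channel 1, and on the BXD arrays Alad read higher with liver in that channel. The 4 strains measured with liver in channel 1 only were BXD8 at 1.18, BXD14 at 1.18, BXD9 at 1.42 and BXD27 at 1.48. On that orientation alone BXD21 of the low group read 0.96 and BXD16 of the high group 1.35, so BXD8 and BXD14 lay inside the gap.

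The other 21914 features (probes, or means of probes of the same gene) were then compared between the 6 high and 7 low strains with limma. After Benjamini-Hochberg adjustment, 2269 features, or 10.4%, passed 0.05, of which 640 (2.92%) were higher and 1629 (7.43%) lower in the high Alad strains. Without adjustment, 6001 features (27.4%) had p under 0.05. Of 3438 named features 369 were called (10.7%). The changes were small: the median absolute difference of the called features was 0.30, 273 reached 0.5 and 10 reached 1.

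These calls rested on many strains at once. Leaving out each strain in turn gave between 413 calls (1.88%, without BXD15) and 2503 (without BXD6), with 609 without BXD18, 718 without BXD16, 1015 without BXD12 and 1434 without BXD31, and 400 features, 81 of them named, were called in all 13 of these fits. The median absolute difference of the called features was 0.22 in females, where 2 features passed adjustment (0.00913%), and 0.37 in males, where 2228 passed (10.2%; 27.1% had an unadjusted p under 0.05), 1355 of them also called with the sexes averaged. A test of the difference between sexes called 93 features (0.424%), and 18.1% of features had an unadjusted p under 0.05 in it.

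The sexes also allowed a division and a test on separate arrays. With strains divided on Alad in males alone and compared on the female arrays, no feature passed limma's adjustment (0.0%), and 761 (3.47%) had an unadjusted p under 0.05. With strains divided on females and compared on males, again none passed (0.0%), and 766 (3.5%) had an unadjusted p under 0.05. These divisions put 3 against 10 and 9 against 4 strains, so they are not the same groups as above. Dividing all 13 strains at the next widest gap, 9 against 4, likewise left no call (0.0%), with 3257 features (14.9%) at an unadjusted p under 0.05.

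The position of an array in the order of deposition moved with the groups. In order of deposition, a new run was started wherever an array with liver in channel 1 followed one with liver in channel 2. The values used fell into 6 such runs, whose high values numbered 4, 3, 3, 2, 1 and 2 and whose low values numbered 1, 1, 3, 4, 5 and 2. The labels do not say whether a run was a hybridisation batch. Run 1 held values of males only, and runs 5 and 6 values of females only. The parts of sex and run in the contrasts between females and males thus cannot be fully told apart. With the run as a term, over 31 values with strain as a random block, 1 unnamed feature was called (0.00456%) against 2251 for the same values without the term. All 2269 called features kept their sign, and 1742 had an unadjusted p under 0.05 (19.9% of all features did). Their median absolute difference was 0.24 in place of 0.30. These features were called on the same arrays, which favours such counts, so the counts are no separate support. The part of the runs in the calls cannot be told apart further with these arrays.

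**Figure D2:**
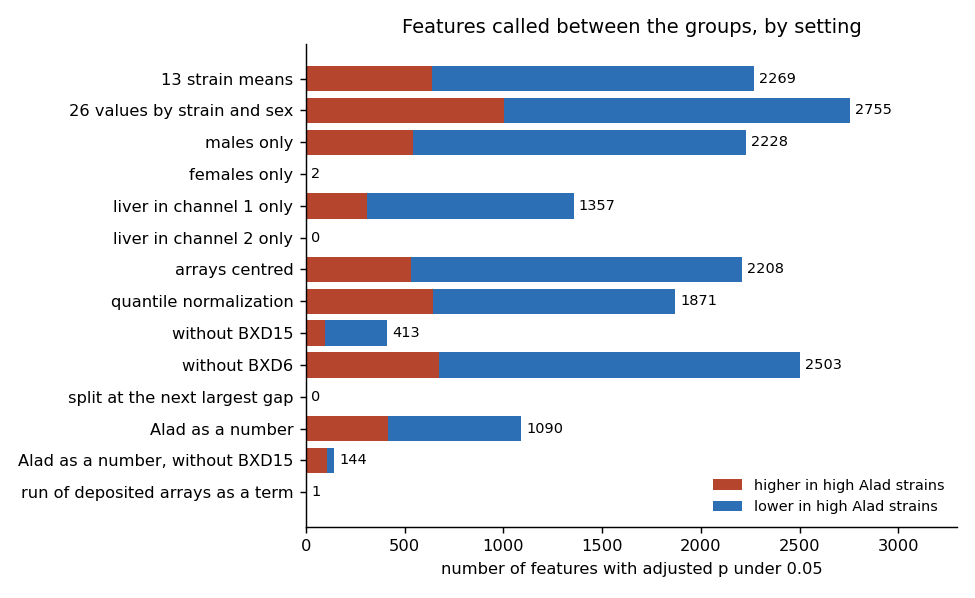
Number of features with adjusted p under 0.05 between high and low Alad strains (horizontal axis) under the main comparison of 13 strain means and 13 alternatives; red bars count features higher and blue bars features lower in the high Alad strains. The strains left out singly that are shown are those with the fewest (BXD15, 413) and the most (BXD6, 2503) calls, and the counts fell to 2 in females, to 0 with liver in channel 2 only or at the next widest gap, and to 1 with the run of deposition as a term.

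The 12 named genes per direction with the smallest p are described next. All 24 were called in each of the 13 fits that leave out a strain. Their groups did not overlap in 21 of 24, against 2.67% of all features and 2.68% of named ones. Exact permutation of the 13 strains (two-sided) gave p from 0.00117, the smallest it can give, to 0.0035. The genes were chosen by p on these same strain values, which favours such results. These results are thus a description and no separate support. With the run of deposition as a term none of the 24 passed limma's adjustment (adjusted p 0.104 to 0.752), although 22 had an unadjusted p under 0.05. In females alone their limma adjusted p ran from 0.075 to 0.304.

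On the higher side Pdgfb had the smallest p. Pdgfb, a chain of platelet-derived growth factor, which drives stellate cells and fibroblasts, was 0.20 in BXD15, 0.19 in BXD28, 0.15 in BXD11, 0.14 in BXD31, 0.10 in BXD16 and -0.04 in BXD6. In the low strains it was -0.16 in BXD21, -0.19 in BXD19, -0.23 in BXD18, -0.30 in BXD2, BXD5 and BXD32 and -0.39 in BXD12. Every high strain lay above every low strain, and the difference was 0.39 ± 0.05 (SE; limma adjusted p = 0.0107). It was 0.53 in females and 0.24 in males.

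Ngef, a guanine nucleotide exchange factor, had the widest difference of the 12, at 0.87 ± 0.13 (SE; limma adjusted p = 0.012). It was 0.08 in BXD16, 0.28 in BXD11, 0.58 in BXD28, 0.60 in BXD6, 0.66 in BXD31 and 0.83 in BXD15, against values from -0.64 in BXD12 to 0.01 in BXD21. The groups came close at BXD16 and BXD21 without overlapping. Slc9a3r1, a scaffold that anchors transporters at the apical membrane, ran from 1.21 to 1.67 in the high and from 0.52 to 1.01 in the low strains, a difference of 0.65 ± 0.09 (SE; limma adjusted p = 0.012). Lcp2, an adaptor of immune receptor signalling, differed by 0.53 ± 0.10 (SE), and its groups met, BXD6 at -0.76 lying below BXD21 at -0.75.

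Enzymes on that side included Scd1, the desaturase that makes monounsaturated fatty acids, and Ggcx, the vitamin K-dependent carboxylase of clotting factors. Scd1 was 0.24 in BXD11 and BXD16, 0.31 in BXD6 and BXD15, 0.36 in BXD28 and 0.42 in BXD31, against -0.03 to 0.13 in the low strains. Its groups did not overlap although the difference was only 0.28 ± 0.04 (SE; limma adjusted p = 0.012). Ggcx ran from -0.08 to 0.34 against -0.70 to -0.20, a difference of 0.46 ± 0.09 (SE; limma adjusted p = 0.0168). Both were higher in each sex, Ggcx by 0.48 in females and 0.44 in males.

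The remaining higher genes were the tight junction protein Tjp1 (difference 0.55), the zinc finger protein Cxxc5 (0.52), the tetraspanin Tspan7 (0.51), the ubiquitin ligase Siah2 (0.37), the DNA repair subunit Xrcc6 (0.37) and the receptor phosphatase Ptprg (0.25). Their limma adjusted p ran from 0.012 to 0.0168. Tspan7 and Siah2 had overlapping groups. Ptprg differed by 0.45 in females and 0.05 in males, and by 0.06 with the run of deposition as a term. For Ptprg the test of the difference between sexes did not pass (limma adjusted p = 0.392).

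Aldh18a1, which starts proline synthesis from glutamate, had the smallest p of all named genes. It was -1.94 in BXD28, -1.92 in BXD15, -1.91 in BXD16, -1.68 in BXD31, -1.67 in BXD11 and -1.62 in BXD6. In the low strains it lay between -1.30 in BXD5 and -1.08 in BXD18, so the groups were apart by more than the width of the low group. The difference was -0.58 ± 0.06 (SE; limma adjusted p = 0.00634), -0.41 in females and -0.75 in males.

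Serpinb3a, a serpin protease inhibitor, was -1.11 in BXD15, -1.09 in BXD16, -0.78 in BXD31, -0.56 in BXD28, -0.53 in BXD11 and -0.39 in BXD6, against -0.34 to 0.28 in the low strains. It had the widest difference of the lower 12, at -0.73 ± 0.13 (SE; limma adjusted p = 0.0146). Lxn, an inhibitor of carboxypeptidases, ran from -0.97 to -0.49 in the high and from -0.48 to -0.02 in the low strains, with BXD6 and BXD32 next to each other. Slc22a17, a receptor for the siderophore-binding protein lipocalin 2, ran from -2.86 to -2.61 against -2.43 to -2.18, a difference of -0.39 ± 0.05 (SE; limma adjusted p = 0.0107).

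Rock2, a kinase that acts on the actin skeleton, was 0.04 in BXD15, 0.07 in BXD16, 0.08 in BXD28, 0.23 in BXD31, 0.41 in BXD11 and 0.43 in BXD6, against 0.54 to 0.83 in the low strains. BXD6 and BXD11 lay nearest to the low group, and the difference was -0.48 ± 0.08 (SE; limma adjusted p = 0.0121). The remaining lower genes were the GABA-B receptor subunit Gabbr1 (-0.48), the matrix protein Fbln2 (-0.39), the transcription factors Zeb1 (-0.39) and Eya4 (-0.41), the kinesin Kifc2 (-0.39), the chitinase-like protein Chil3 (-0.36) and Racgap1 (-0.26), which acts in the division of the cell body. All 12 lower genes had groups that did not overlap, and their limma adjusted p ran from 0.00634 to 0.0146.

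**Figure D3:**
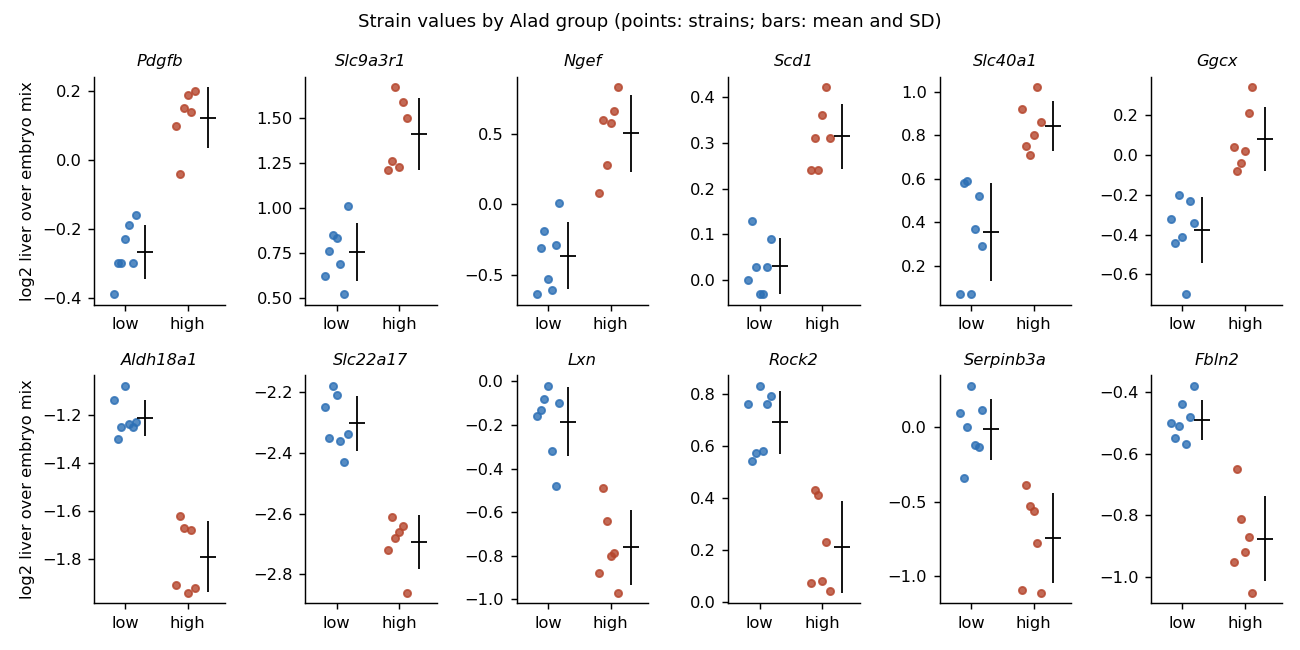
Log2 ratio of liver over embryo mix (vertical axes, each with its own range) in low (blue) and high (red) Alad strains for 11 of the 24 named genes with the smallest p and for the iron exporter Slc40a1; points are strains and bars mean and SD. In all 12 genes every high strain lies on one side of every low strain, as for Aldh18a1, where the high strains lie at or below -1.62 and the low ones at or above -1.30.

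Genes of the pathway of Alad were taken from a list. Beside Alad, 3 genes of heme synthesis were measured, of which 1 was called, higher, where 2.92% of all features were called higher. Abcb10, a mitochondrial transporter needed for heme synthesis in red cells, was higher in the high Alad strains by 0.37 ± 0.08 (SE; limma adjusted p = 0.0184). It was -0.35 in BXD11, -0.36 in BXD15, -0.42 in BXD6, -0.43 in BXD31, -0.50 in BXD16 and -0.67 in BXD28, against -1.02 to -0.55 in the low strains, so BXD28 overlapped the low group, and the call was lost without BXD15. With the run of deposition as a term the difference of Abcb10 was 0.26 (limma adjusted p = 0.121). Fech, which inserts iron to make heme, differed by 0.23 ± 0.10 (SE; limma adjusted p = 0.14), and Cpox, which makes protoporphyrinogen, by 0.17 ± 0.13 (SE; limma adjusted p = 0.43). Neither passed the test.

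Among 10 genes of heme breakdown and iron handling 2 were called, both higher, where 2.92% of all features were called higher. Slc40a1, ferroportin, the iron exporter of cells, was 0.71 in BXD11, 0.75 in BXD6, 0.80 in BXD28, 0.86 in BXD15, 0.92 in BXD16 and 1.02 in BXD31. In the low strains it was 0.07 in BXD12 and BXD18, 0.29 in BXD21, 0.37 in BXD19, 0.52 in BXD32, 0.58 in BXD5 and 0.59 in BXD2. No high strain overlapped a low one, the difference was 0.49 ± 0.09 (SE; limma adjusted p = 0.0168), and the call held in all 13 fits that leave out a strain. With the run of deposition as a term it was 0.40 (limma adjusted p = 0.119).

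Tfr2, the transferrin receptor by which hepatocytes sense iron, ran from 2.26 to 2.57 against 1.84 to 2.38 and differed by 0.33 ± 0.09 (SE; limma adjusted p = 0.0348). Its call was lost without any 1 of 8 strains (BXD5, BXD11, BXD12, BXD15, BXD16, BXD18, BXD19 and BXD31), and with the run term the difference was 0.10. The 8 members that were not called were the heme oxygenases Hmox1 (-0.03) and Hmox2 (0.01), haptoglobin Hp (-0.12), the ferritin heavy chain Fth1 (0.14), the iron regulator Hfe (0.17), the importer Slc11a2 (0.22), ceruloplasmin Cp (0.07) and the porphyrin exporter Abcg2 (0.10). The median difference of the list was 0.117, beside -0.00116 over all features. The mean over the list ran from 1.06 to 1.13 in the high strains and from 0.83 to 1.03 in the low strains.

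Markers of red cells, which carry most heme, were counted among 7 measured genes, of which 1 was called, lower, beside 7.43% of all features. Ank1, a protein of the red cell skeleton, was lower in the high Alad strains by -0.26 ± 0.07 (SE; limma adjusted p = 0.0291), and the call was lost without BXD15, BXD18 or BXD28. The Rhesus-associated glycoprotein Rhag differed by -0.41 (limma adjusted p = 0.0516), Ermap by -0.28, Epb42 by 0.06 and the alpha globin Hba-a1 by 0.14, and these did not pass. The median of the list was -0.151. The list's mean ran from -1.30 to -0.99 in the high and from -1.05 to -0.89 in the low strains, so the groups overlapped. Fewer cells of a type and less RNA per cell cannot be told apart in such tissue samples.

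Markers of other cells and other gene groups are given next, to be read against the 10.4% of all features called. None of 7 hepatocyte, 4 macrophage, 3 lymphocyte or 3 pancreatic genes was called, and hepatocyte strain means ran from 3.20 to 3.33 in the high and from 3.15 to 3.46 in the low strains. Of 10 embryonic genes 2 were lower, the fetal protein Dlk1 (-0.34) and the RNA-binding protein Igf2bp1 (-0.26). Of 3 stellate cell and fibroblast genes the collagen Col1a2 was lower (-0.29), the bile duct gene Epcam was lower (-0.28), and of 4 endothelial genes the angiopoietin receptor Tek was higher (0.27). The embryonic, stellate and bile duct calls were each lost without at least 1 strain, BXD15 among them. The part of these cell types in the other differences was not tested.

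Of 24 cytochrome P450 genes, which bind heme, 1 was higher and 1 lower, beside 10.4% of all features called. Cyp2b13, a steroid hydroxylase that is higher in females, differed by 0.31 ± 0.07 (SE; limma adjusted p = 0.0208), and its call was lost without BXD15. It differed by 0.60 in females and 0.01 in males, but the test of the difference between sexes did not pass (limma adjusted p = 0.0729). Cyp11b2, which makes aldosterone, differed by -0.34 (limma adjusted p = 0.0496) and was called in only 1 of 13 fits that leave out a strain, that without BXD11. The median over the 24 genes was 0.0487. No gene of the acute phase (7 measured) or of the proteasome and lysosomal proton pump (4 measured) was called, and of 8 genes of endoplasmic reticulum and heat-shock stress the chaperone Hspa1a was lower (-0.35), a call lost without any 1 of 7 strains (BXD12, BXD15, BXD16, BXD18, BXD21, BXD28 and BXD31).

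Genes known to carry variants between B6 and D2 on other chromosomes were read beside Alad. Of 5 measured, 1 was called, lower, beside 7.43% of all features. The interferon-induced gene Ifi202b ran from 0.74 to 1.30 in the high and from 1.25 to 1.75 in the low strains. It differed by -0.49 ± 0.11 (SE; limma adjusted p = 0.0189), and the call was lost without BXD15. The GTPase Gbp2b differed by 0.59 ± 0.25 (SE), the DNA glycosylase Mpg by 0.41 ± 0.26, the P450 Cyp2c29 by 0.37 ± 0.23 and Plekhb1 by 0.28 ± 0.49, with limma adjusted p from 0.143 to 0.756. Of 12 cell division genes, a list chosen after values were seen, 3 were lower, beside 7.43% of all features: Racgap1, the replication factor Cdc45 (-0.25) and the kinase Melk (-0.24). The call of Melk was lost without BXD12, BXD15, BXD16, BXD18, BXD21 or BXD31.

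Chromosome 4 is where strains that share a form of Alad would also tend to share neighbouring genes. Of its 150 named genes beside Alad 16 were called, or 10.7%, beside 352 of 3280 on other chromosomes (10.7%). Chromosome 19 had 17.2% called and chromosome 9 1.97%. The 15 nearest measured named genes on each side of Alad held 3 calls, all lower in the high Alad strains and all on the same side, and 9 of the 30 had an unadjusted p under 0.05, beside 27.4% of all features. None of the 30 had groups that did not overlap, beside 2.67% of all features, and their median difference was -0.00178.

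The gene directly beside Alad is Pole3, a subunit of DNA polymerase epsilon. It was -0.27 in BXD11 and BXD15, -0.23 in BXD16, -0.22 in BXD6, -0.15 in BXD28 and 0.03 in BXD31, against -0.36 in BXD21, -0.26 in BXD32, -0.12 in BXD2, -0.11 in BXD18, -0.01 in BXD12, 0.02 in BXD19 and 0.06 in BXD5. The groups overlapped fully, and the difference was -0.07 ± 0.07 (SE; limma adjusted p = 0.555). Hdhd3, the gene on the other side, was not analysed here. Beyond Pole3 came the G-protein regulator Rgs3 (0.15 ± 0.07 SE, 3 genes from Alad), Zfp618 (0.07 ± 0.04, 4 genes), the plasma protein precursor Ambp (0.13 ± 0.07, 5 genes) and the acute phase protein Orm1 (0.22 ± 0.19, 8 genes), none of which passed. On this side the differences of the 15 genes ran from -0.27 to 0.26, and the smallest limma adjusted p was 0.144. Those farther out were the proton pump subunit Atp6v1g1 (-0.07), the matrix protein Tnc (-0.03), Astn2 (0.21), the co-repressor Tle1 (0.05), the receptor phosphatase Ptprd (0.03), the scaffold Mpdz (0.26), Cer1 (0.07), the interferon gene Ifnb1 (-0.27), the cell cycle inhibitor Cdkn2a (0.03) and the RNA-binding protein Elavl2 (0.04).

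On the other side the nearest measured gene was Slc46a2, 35 genes away (-0.09 ± 0.15 SE; limma adjusted p = 0.756), followed by the proteasome adaptor Ecpas 48 genes away (-0.16 ± 0.07). Lpar1, a receptor of lysophosphatidic acid 50 genes away, was lower by -0.55 ± 0.14 (SE; limma adjusted p = 0.0293). It was -0.33 in BXD16, -0.13 in BXD15, -0.06 in BXD31, 0.14 in BXD28, 0.36 in BXD6 and 0.50 in BXD11, against 0.36 to 1.02 in the low strains, and BXD6 and BXD11 lay among these. Musk, the muscle kinase next to it, differed by -0.08 ± 0.04. The uncalled genes farther out on this side were Actl7a (0.01), the repair factor Rad23b (-0.02), the cholesterol exporter Abca1 (0.22), the condensin subunit Smc2 (-0.17), the bile acid conjugating enzyme Baat (-0.05), Invs (0.12), the glycosyltransferase Alg2 (0.09), the repair factor Xpa (-0.18) and Igfbpl1 (-0.10).

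Ctnnal1, a catenin-like protein 62 genes away, was -0.15 in BXD15 and BXD16, 0.06 in BXD31, 0.15 in BXD28, 0.22 in BXD6 and 0.27 in BXD11, against 0.20 in BXD2 and 0.42 to 0.78 in the other low strains. BXD2 alone of the low group overlapped the high group, and the difference was -0.45 ± 0.10 (SE; limma adjusted p = 0.0186). Pax5, a B cell transcription factor 142 genes away, differed by -0.31 ± 0.08 (SE; limma adjusted p = 0.0245). All 3 were uncalled without BXD15. Lpar1 was also uncalled without BXD16, BXD18, BXD21 or BXD31, and Pax5 without BXD12, BXD16 or BXD18. With the run of deposition as a term their limma adjusted p ran from 0.115 to 0.179.

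Of the other 13 called genes of chromosome 4, 5 were higher and 8 lower. Trp53inp1, a stress gene induced by p53, had the widest difference among the 150 tested genes of the chromosome, -1.22 ± 0.31 (SE; limma adjusted p = 0.0271). It was 0.36 in BXD28, 0.53 in BXD31, 0.55 in BXD15, 1.58 in BXD16, 1.64 in BXD11 and 1.72 in BXD6, against 1.41 in BXD21, 1.50 in BXD18 and 2.37 to 2.91 in the other 5 low strains. The high group thus held 3 low and 3 intermediate strains, and the call was lost without BXD12, BXD15 or BXD31.

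The fructose transporter Slc2a5 (0.74 ± 0.15 SE), the mitochondrial adenylate kinase Ak4 (0.64 ± 0.14), the redox protein Park7 (0.33 ± 0.06) and Tek were called in all 13 fits that leave out a strain, as was Nkain1 among the lower genes (-0.31 ± 0.06). Groups did not overlap for Park7, Nkain1 and the orphan receptor Gpr3 (-0.35 ± 0.08). Park7 lay between 0.85 and 1.24 in the high and between 0.54 and 0.74 in the low strains. Further calls were the complement protease Masp2 (0.26), Eya3 (-0.32), the galactosyltransferase B4galt2 (-0.25), Melk and the endocytic adaptor Eps15 (-0.40). Each of these 5 and Gpr3 was uncalled without BXD15 and without at least 1 other strain. The difference of Eps15 turned positive when the 4 strains of 1 orientation were added to the high group.

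**Figure D4:**
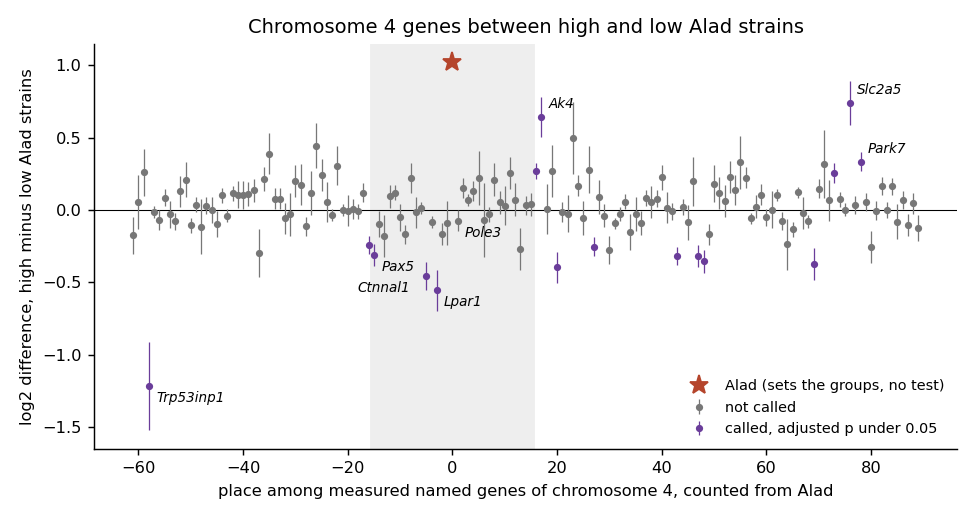
Difference between high and low Alad strains (log2, vertical axis; bars are SE) of 150 named genes of chromosome 4, placed by their order from Alad (horizontal axis, a place among measured named genes, not a distance); the grey band holds the 15 nearest on each side and the star is Alad. Called genes lie along the chromosome, with Lpar1 and Ctnnal1 3 and 5 places from Alad and Pole3 next to it at -0.07.

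The division by Alad was also read against the main axis of variation between strains. The first principal component of the 13 strains over all features except Alad held 25.4% of the variance. All 6 high strains scored above 0, the lowest being BXD6 at 0.073, and all 7 low strains below, the highest being BXD19 at -0.107. Within the high group BXD15 had the highest score (0.562), as it had for Alad, and in the low group BXD12 the lowest (-0.368). In females alone the component held 37.2%, with 5 of 6 high strains above 0 and 5 of 7 low strains below, and in males 31.6%, with 5 of 6 and 7 of 7. The spread of ratios within a strain (median absolute deviation over features) was 0.278 to 0.339 in the high and 0.303 to 0.363 in the low strains, with medians of 0.300 and 0.339. Its part in the component was not tested.

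**Figure D5:**
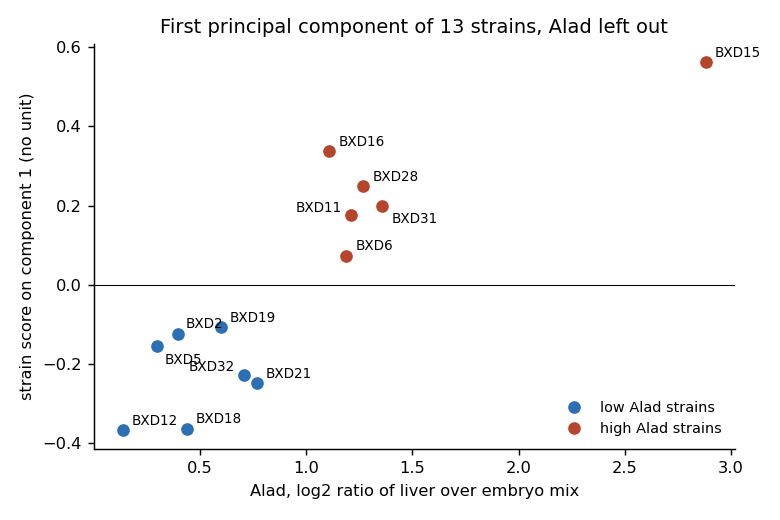
Score of each strain on the first principal component of all features except Alad (vertical axis, no unit, 25.4% of the variance) against its Alad level (horizontal axis, log2 ratio of liver over embryo mix). Red high Alad strains lie at 0.073 and above and blue low Alad strains at -0.107 and below.

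The arrays of D2 against B6 liver, which share no sample with the BXD arrays, gave another reading of the called features. On the female pair of opposite orientation, 80.2% of the 640 features higher in high Alad strains had a D2 over B6 ratio above 0, beside 52.6% of all features, and 3.19% of the 1629 lower features did. On the male pair these shares were 42.5% and 69.7%, beside 51.0% of all features. The second replicate, with 1 orientation each, gave 75.5% and 10.8% in females, beside 49.2% of all features. In males it gave 43.9% and 42.2%, beside 48.7%. Thus both female readings leaned to the directions of the high Alad strains. In males the higher features were above 0 less often than all features on both readings. The lower features were above 0 more often on the male pair and less often on the male second replicate. Alad itself was above 0 in both sexes. Across features the arrays of a pair correlated weakly after turning, at 0.133 in females and -0.019 in males, and features are not independent replicates.

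On the pairs of opposite orientation, single genes also differed between the sexes. Of the 12 lower genes named above 12 were below 0 on the female D2 over B6 pair and 1 on the male pair. Of the 12 higher genes 8 were above 0 on the female and 5 on the male pair. Aldh18a1 was -0.56 on the female and 0.15 on the male pair, Serpinb3a -0.71 and 0.02, and Slc40a1 0.71 and -0.46.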

How the data were processed

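The authors deposited 1 log ratio per probe and array, read here as log10 because 94 values equal 2 or -2 exactly, a 100-fold ratio; base, scanner, software and normalization are not stated in the labels. Values were converted to log2, and arrays with liver in channel 1 were multiplied by -1. Intensity and depth of signal were not analysed here, and the number of strains limits the precision. Of 21936 probes, 3290 had 1 symbol in the platform annotation, 4 several, 170 were named by accession through RefSeq (GRCm38.p6, from which only names and gene order were taken) and 18472 had none; probes of 18 genes were averaged, leaving 21915 features. No low-value filter was applied.

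Groups were compared with limma 3.58.1 in R 4.3.3 (lmFit, eBayes, Benjamini-Hochberg adjustment over 21914 features, threshold 0.05). Each value is a ratio to the embryo mix on its own array, so variation of the mix between arrays is part of it. Whether arrays came from separate animals is unknown, so p-values measure the spread between strains as arrayed. The fit was tested on simulated data. Genes were named by rule: the 15 nearest measured named genes on each side of Alad, other called genes of chromosome 4, the 12 smallest p per direction among called named genes, heme, iron, red cell and parental variant lists, and called members of other lists; clone names were passed over, the results of a few genes that met the rule are not reported here, and no major urinary protein gene was among the named features. Members and lists were chosen with earlier results of these data known. 1 array titled as a swap lists liver in the first channel and was used by its channel labels. Alternatives covered sex, orientation, scaling, strains left out, other splits and the run of deposition.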

Additional observations from a re-analysis of the deposited data

Results flagged for a closer look

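Among the 108 groups of 6 or 7 strains tested for a strain far from the others, 5 had one, where chance gives about 1 in 20 groups. For Alad it was BXD15 at 2.88 among the high strains, which is a description because Alad set the groups. For Park7 it was BXD31 at 1.24 and for Col1a2 BXD28 at -2.12, both among the high strains. For Xrcc6 it was BXD15 at -0.06 among the high strains, and for Ank1 BXD5 at -0.85 among the low strains.

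The difference between high and low Alad strains itself differed between females and males for 93 features by limma (adjusted p under 0.05), 16 of them named. For Rbmy, a gene of the Y chromosome, which females lack, the difference was -0.51 in females and 0.47 in males. The female value thus cannot reflect its transcript, and what the probe read there was not tested. The differences in females and males were -0.37 and 0.31 for the chaperone Dnajb8 and -0.43 and 0.31 for the synaptotagmin Syt3. They were -0.32 and 0.37 for the deglycosylating enzyme Ngly1, and 0.29 and -0.13 for the kinase Jak3. After centring each array 35 such features were called. Sex was partly tied to the run of deposition, so the parts of sex and run in these differences cannot be fully told apart.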

How the results depend on the processing

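The count of called features (2269) stayed within 1.5 times in males only, with arrays centred, scaled or quantile normalized, with probes kept single, with a trend or robust fit, with replicate number 1 only, with 17 strains, without the array of conflicting labels, and over 26 values by strain and sex. It was 1357 with liver in channel 1 only, 1295 among features of larger spread (fewer tested), 1090 with Alad as a number and 144 without BXD15 in that fit (an alternative added after seeing the data). It was 2 in females only, 1 with the run of deposition as a term, and 0 with liver in channel 2 only or at the next widest gap, where 4092 and 3257 features had an unadjusted p under 0.05. In the fit over 26 values the correlation between the sexes of a strain, estimated over all features, was 0.049. The sexes of a strain thus counted there nearly as independent values. Leaving out 1 strain gave 413 to 2503. The 3 neighbours called became 0 in females and 0 to 4 with 1 strain left out. Dividing strains on males and testing in females gave 0 (761 at unadjusted p under 0.05), and the reverse 0 (766). The features that differed between sexes became 35 after centring. The fits with 17 strains counted all 4 strains of 1 orientation as high, although BXD8 and BXD14 lay inside the gap on that orientation. Eps15, at -0.40, turned to 0.10 with 17 strains and 0.05 with 17 strains in channel 1 only. The cause of these changes was not tested, beyond the smaller numbers of samples or features. No paired analysis was possible because each strain gives 1 value and the replicate number only counts arrays of a strain and sex.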
